A study of Homo sapiens with 20 samples.

Results

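The small RNAs described here are the guide RNAs of the Cajal body, called scaRNAs, together with the structured RNAs at the core of the spliceosome and of other stable RNA-protein particles. They were chosen by symbol: every gene named SCARNA with a number, and 17 further genes, namely RN7SK, RN7SL1, RN7SL2, RMRP, RPPH1, TERC, RNU4-1, RNU4-2, RNU5A-1, RNU5B-1, RNU11, RNU12, RNU4ATAC, RNU6ATAC, VTRNA1-1, VTRNA1-2 and VTRNA1-3. The rule found 41 of the 57086 genes and other features in the tables, 24 of them scaRNAs.

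The study asked what loss of Dicer, the enzyme that cuts double-stranded RNA, and of the small RNA factors Ago2 and Drosha does to RNA in HEK293T, a human embryonic kidney cell line. RNA of whole cells (mRNA-seq) was sequenced from 3 wild-type (wt) and 3 shDicer samples, all given 3 µg/ml doxycycline for 7 days, where the shDicer line (HEK293 2B in the labels) carries an inducible short hairpin against Dicer. RNA bound to chromatin (chrRNA-seq) was sequenced from 2 samples each of wt, shDicer, shAgo2 and DroshaKD. The chromatin shDicer and shAgo2 lines received 3 µg/ml doxycycline for 72 h and DroshaKD cells were transfected with a plasmid that makes a hairpin against Drosha; whether the chromatin wt and DroshaKD cells had doxycycline is not given in the sources used here. No sample with a control hairpin was analysed, so a knockdown and the presence of a hairpin, a stable line or a transfection cannot be told apart. The labels call the mRNA-seq material polyA RNA while the kit was made for total RNA and the methods describe removal of ribosomal RNA. The labels do not say whether replicates were separate cultures, and p-values therefore measure the spread between these samples, which may be technical.

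Most spliceosomal snRNAs are made by RNA polymerase II, receive a ring of Sm proteins in the cytoplasm and mature in the Cajal body, a nuclear compartment in which scaRNAs direct the methylation and pseudouridylation of snRNAs. Most scaRNAs are cut out of the introns of host genes, whereas 7SK, 7SL, RNase MRP and RNase P RNA, U6atac and the vault RNAs are transcribed from their own promoters by RNA polymerase III. None of these RNAs normally carries a poly(A) tail, and their abundance reflects both synthesis and the stability of the particle they sit in.

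Each sample held 10216400 to 17216000 estimated counts in mRNA-seq and 17484100 to 21553800 in chrRNA-seq, of which 93.4 to 94.8% were matched to annotated genes. Against the matched counts alone, 3 counts correspond to 0.184 to 0.311 CPM (counts-per-million units) in mRNA-seq and to 0.149 to 0.183 CPM in chrRNA-seq. The knockdowns were checked on the targeted genes. DICER1 was lower in mRNA-seq shDicer, at 87.8 ± 6.93 against 247 ± 13.5 CPM (SD, n = 3; adjusted p = 1.27e-07). In the chromatin libraries AGO2 was lower in shAgo2, at 161 ± 2.06 against 247 ± 10.7 CPM (SD, n = 2; adjusted p = 9.29e-05), DICER1 in shDicer missed the threshold, at 108 ± 0.879 against 122 ± 3.78 CPM (SD, n = 2; adjusted p = 0.166), and DROSHA was not lower in DroshaKD, at 157 ± 12.9 against 149.6 ± 5.24 CPM (SD, n = 2; adjusted p = 0.697). These last libraries are therefore called the libraries labelled DroshaKD, and the chromatin shDicer libraries are likewise known by their label. By qRT-PCR the authors measured steady-state RNA of the targeted genes in samples used for chrRNA-seq, and their western blots are described as showing the knockdowns. The chromatin values given here are of RNA bound to chromatin, which is neither steady-state RNA nor protein. In chromatin shAgo2 DICER1 was higher, at 209 ± 7.51 against 122 ± 3.78 CPM (SD, n = 2; adjusted p = 3.59e-05).

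The sequences that carry the comparisons below are shown with GRCh38 coordinates from GENCODE release 44. The first set holds the spliceosomal snRNAs that changed in mRNA-seq, with RNU4-2, the close copy of RNU4-1. Capitals mark ATTTTTG or ATTTTTTG, the letters searched as a stand-in for the site at which Sm proteins bind.
RNU4-1 (chr12:120293097-120293237, minus strand): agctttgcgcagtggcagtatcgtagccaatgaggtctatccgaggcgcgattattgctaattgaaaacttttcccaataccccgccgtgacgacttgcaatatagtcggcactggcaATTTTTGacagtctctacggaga
RNU4-2 (chr12:120291763-120291903, minus strand): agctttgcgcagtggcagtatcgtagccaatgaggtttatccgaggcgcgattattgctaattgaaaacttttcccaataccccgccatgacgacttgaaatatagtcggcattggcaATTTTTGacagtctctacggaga
RNU11 (chr1:28648600-28648733, plus strand): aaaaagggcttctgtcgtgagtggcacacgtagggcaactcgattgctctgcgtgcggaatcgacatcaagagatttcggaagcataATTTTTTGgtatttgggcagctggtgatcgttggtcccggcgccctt
RNU12 (chr22:42615244-42615393, plus strand): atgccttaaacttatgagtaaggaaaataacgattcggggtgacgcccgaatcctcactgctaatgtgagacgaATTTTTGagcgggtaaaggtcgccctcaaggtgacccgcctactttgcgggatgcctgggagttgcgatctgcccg

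These letters occurred in 8 of the 41 RNAs, among them all 4 printed. They occurred in 6.12% of 1388 other transcripts of 116 to 150 nt on the printed strand and in 2.74% on the opposite strand. RNU4-1 and RNU4-2 differed at 4 aligned positions (97.2% identity).

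The next set holds scaRNAs. SCARNA21 is shown whole, with the ACA that lies 3 bases from its end in capitals, the mark of an H/ACA guide. For SCARNA5, SCARNA7, SCARNA10 and SCARNA12 the first and last 30 bases are shown, with TGATGA, which holds box C of a C/D guide, and CTGA, its box D, in capitals.
SCARNA21 (chr17:7906122-7906260, plus strand): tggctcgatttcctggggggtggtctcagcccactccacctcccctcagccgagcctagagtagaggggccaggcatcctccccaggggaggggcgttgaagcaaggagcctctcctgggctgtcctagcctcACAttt
SCARNA5 first 30 bases (chr2:233275727-233275756, plus strand): ggtcgaTGATGAttggtaaaaggtctgatt
SCARNA5 last 30 bases (chr2:233275973-233276002, plus strand): tgcatgatctcaagttttcaatCTGAgacc
SCARNA7 first 30 bases (chr3:160515207-160515236, minus strand): tggaaaTGATGAaatagagataattgggtg
SCARNA7 last 30 bases (chr3:160514907-160514936, minus strand): tcattaaaatggtcctgtgatCTGAtccaa
SCARNA10 first 30 bases (chr12:6510222-6510251, plus strand): gccacaTGATGAtatcaaggctgttgtgat
SCARNA10 last 30 bases (chr12:6510522-6510551, plus strand): gaaacacagatctttggtaatCTGAtggct
SCARNA12 first 30 bases (chr12:6967577-6967606, minus strand): caggcTGATGAgactaaggcgaatgcgact
SCARNA12 last 30 bases (chr12:6967337-6967366, minus strand): agccacctgagcgcaaccttggatCTGAca

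An ACA at that place ended 13 of the 24 scaRNAs and 6.26% of 5320 other transcripts of 125 to 275 nt. TGATGA in the first 12 bases with CTGA in the last 12 was found in 5 scaRNAs (SCARNA5, SCARNA6, SCARNA7, SCARNA10 and SCARNA12) and in 3 of 4726 other transcripts of 265 to 330 nt (0.0635%). On the opposite strand these ends were found in 1.80% and in 0 of the same transcripts.

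Reads were assigned to transcripts by kallisto, which works from subsequences of 31 nt. For 19 of the 41 RNAs no such subsequence occurred in a transcript of another gene among those matched to GENCODE. Transcripts without a match were not searched. Estimated counts of RMRP, SCARNA6 and SCARNA13, all among the 19, were not whole. RMRP had 86953.8 and SCARNA6 252.5 in wt mRNA-seq replicate 1, and SCARNA13 had 118.318 in wt chromatin replicate 1. SCARNA13 also lies inside an exon of SNHG10 on the same strand. Sharing with a transcript not searched was not tested, so the counts of these RNAs are uncertain too. For 15 RNAs some were shared, among them RN7SL1 (98.1%), RN7SL2 (94.8%), RNU11 (97.1%), SCARNA12 (87.1%, with exons of its host PHB2), RNU6ATAC (84.4%), TERC (79.8%), SCARNA10 (72.7%), RNU4-1 (52.3%), RNU4-2 (39.6%), RNU5A-1 (39.5%), RNU5B-1 (38.4%) and SCARNA9 (31.7%). All were shared for RN7SK, RNU12, RPPH1, SCARNA2, SCARNA15, SCARNA16 and SCARNA17, each of which lies inside an exon of an overlapping gene record on the same strand. Counts of RNAs with shared subsequences were divided between records by the authors' model and are uncertain to that extent. Values with the overlapping or copied records added together stand beside the calls that this ended or moved most.

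In wt cells these RNAs made up 12.1 to 13.4% of the matched estimated counts in mRNA-seq and 0.395 to 0.418% in chrRNA-seq. Per length, in transcripts-per-million units (TPM, deposited values), the highest levels in wt mRNA-seq were those of RN7SL1 at 191111 ± 10619.9, RN7SL2 at 110532 ± 1374, RN7SK at 53885 ± 1871, RMRP at 28418 ± 278 and RPPH1 at 22072 ± 1123 TPM (SD, n = 3), an order in which no neighbours overlapped. RNU4-2 and RNU4-1 followed at 5326 ± 692 and 3146 ± 420.5 TPM, and SCARNA21 was the scaRNA with the highest mean, at 527 ± 97.7 TPM, within the spread of SCARNA10 at 517 ± 32 TPM. On wt chromatin the order began with RN7SK at 5072 ± 488, RMRP at 4258 ± 74.5, RN7SL1 at 4101 ± 162, RN7SL2 at 3115 ± 157 and RNU4-2 at 833 ± 120.2 TPM (SD, n = 2), and the samples of RMRP and RN7SL1 overlapped. The scaRNA highest on chromatin was SCARNA2 at 234 ± 7.45 TPM. Between the fractions the mean TPM of RPPH1 in wt was 70.6 times as high in mRNA-seq as on chromatin, that of RN7SL1 46.6 times and that of RN7SL2 35.5 times, while SCARNA4 stood at 0.313 times. SCARNA16 had 262 ± 25.5 TPM in wt mRNA-seq (SD, n = 3) and was listed at 0 in both chromatin wt samples. SNHG20, whose record contains it, and SCARNA16 together had 1541 and 1359 estimated counts there. The fractions differ also in kit and in doxycycline, which cannot be told apart from the cell compartment.

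In mRNA-seq shDicer against wt, calls ran in both directions. 7SK RNA, 7SL RNA from RN7SL2 and the scaRNAs SCARNA10 and SCARNA21 were higher. The U4 copy RNU4-1, the minor spliceosome RNAs RNU11 and RNU12 and the scaRNA SCARNA7 were lower. Of the 41 RNAs, 30 passed the filter on low counts, and 8 of them were called at an adjusted p under 0.001 by edgeR's quasi-likelihood test, 4 higher and 4 lower. At an unadjusted p under 0.05, 7 of the 30 were higher and 14 lower, where 62.0% of all genes passed, and DESeq2 called 6 higher and 5 lower. The share called among all 15090 genes tested was 29.8% (15.6% higher and 14.2% lower). Calls were thus no more frequent among these RNAs than over all genes. The median log2 fold change of the 30 was -0.27 beside 0.011 over all genes tested. In a bulk sample, fewer cells of a kind and less RNA per cell cannot be told apart.

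RN7SK, the RNA that holds the elongation kinase P-TEFb inactive (chr6:52995621-52995948, plus strand), stood at 20329.9, 19352 and 18221 CPM in the wt samples and at 38458, 31843 and 26094 CPM in shDicer. All shDicer samples lay above all wt samples (log2 fold change 0.74 ± 0.12 SE, adjusted p = 0.000408). RN7SL2 encodes the RNA of the signal recognition particle, which targets nascent proteins to the endoplasmic reticulum, and it stood at 35339.8, 32929 and 32348 CPM in wt and at 60371, 54593 and 47369 CPM in shDicer. The groups did not overlap (log2 fold change 0.69 ± 0.09 SE, adjusted p = 0.000103). Its near copy RN7SL1 gave 63563, 56466 and 53019.5 CPM in wt and 88113, 80668 and 64572 CPM in shDicer, which again did not overlap but missed the threshold (log2 fold change 0.43 ± 0.12 SE, adjusted p = 0.00814). With RN7SL1, RN7SL2 and their annotated copies added together the log2 fold change was 0.53 with adjusted p = 0.00133, past no call.

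The catalytic RNAs of RNase P and RNase MRP, enzymes that cut precursors of tRNA and rRNA, were not called. RPPH1 (chr14:20343075-20343407, minus strand) stood at 8012, 8098 and 8225 CPM in wt and at 20199, 10697 and 9274 CPM in shDicer. The groups did not overlap, but shDicer replicate 1 was far above the other two (log2 fold change 0.72 ± 0.23 SE, adjusted p = 0.0186). RMRP (chr9:35657754-35658017, minus strand) stood at 7048, 6424 and 6523 CPM in wt and at 7483, 5411 and 5017 CPM in shDicer. Here the groups overlapped (log2 fold change -0.16 ± 0.13 SE, adjusted p = 0.319).

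Among spliceosomal snRNAs, RNU4-1, a gene for U4, the snRNA that pairs with U6 until the spliceosome is activated, stood at 182, 134 and 125 CPM in wt and at 45.9, 68.1 and 77.9 CPM in shDicer. All shDicer samples were below all wt samples (log2 fold change -1.20 ± 0.18 SE, adjusted p = 0.000231). RNU4-2, the other main U4 gene, stood at 307, 226 and 213 CPM in wt and at 122, 162 and 189.8 CPM in shDicer and missed the threshold without overlap (log2 fold change -0.65 ± 0.16 SE, adjusted p = 0.0056). All U4 records together gave a log2 fold change of -0.83 with adjusted p = 0.00158, which also missed the call. RNU11, whose RNA recognises the start of minor introns, stood at 36.2, 31.1 and 34.5 CPM in wt and at 14.4, 16.8 and 23.6 CPM in shDicer. The groups were apart (log2 fold change -0.88 ± 0.17 SE, adjusted p = 0.000878). This call was lost in 8 of 16 alternatives, with adjusted p up to 0.0149 (edgeR, counts scaled from TPM). The direction of RNU11 stayed the same in all of them. RNU12, whose RNA pairs with the branch point of minor introns, stood at 27.7, 24.4 and 21.0 CPM in wt and at 9.79, 10.7 and 12.7 CPM in shDicer, again without overlap (log2 fold change -1.14 ± 0.15 SE, adjusted p = 6.06e-05). Adding the record that contains RNU12 took away this call (log2 fold change -0.48 ± 0.11 SE, adjusted p = 0.00355). The U5 genes, whose RNA aligns the exons to be joined, overlapped between groups and were not called. RNU5A-1 stood at 44.7, 32.5 and 26.7 CPM in wt and at 21.7, 23.5 and 28.9 CPM in shDicer (log2 fold change -0.49 ± 0.18 SE, adjusted p = 0.0362). RNU5B-1 stood at 40.8, 30.0 and 29.6 CPM in wt and at 23.7, 28.1 and 33.8 CPM in shDicer (log2 fold change -0.23 ± 0.16 SE, adjusted p = 0.244). The other minor snRNAs, RNU4ATAC and RNU6ATAC, were not called (log2 fold changes -0.23 and -0.18).

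Of the 24 scaRNAs 14 were tested, and 2 were called higher and 1 lower. SCARNA10, also known as U85, directs modification of U5 and carries both guide types. It stood at 182, 189 and 189 CPM in wt and at 297, 363 and 294 CPM in shDicer, and all shDicer samples were above wt (log2 fold change 0.77 ± 0.09 SE, adjusted p = 2.89e-05). SCARNA21 stood at 20.6, 23.4 and 25.9 CPM in wt and at 47.0, 46.8 and 35.4 CPM in shDicer, likewise without overlap (log2 fold change 0.89 ± 0.14 SE, adjusted p = 0.000225). SCARNA7, or U90, stood at 185, 176 and 162 CPM in wt and at 114, 137 and 131 CPM in shDicer, where every sample was lower than in wt (log2 fold change -0.45 ± 0.09 SE, adjusted p = 0.000999). This call lies just inside the threshold and was lost in 12 of 16 alternatives, with adjusted p up to 0.0253. Among these were RLE scaling, library size alone, the replicate block and every fit with 1 sample left out. Adding overlapping records of other RNAs together also ended it (edgeR, adjusted p = 0.00101). The direction stayed the same in all alternatives. SCARNA12, or U89, stood at 83.5, 77.5 and 94.5 CPM in wt and at 156, 137 and 99.1 CPM in shDicer, all above wt, and missed it (log2 fold change 0.62 ± 0.14 SE, adjusted p = 0.00375). SCARNA5, or U87, stood at 37.4, 37.4 and 43.2 CPM in wt and at 32.5, 36.0 and 27.7 CPM in shDicer, all below wt, and was not called (log2 fold change -0.30 ± 0.12 SE, adjusted p = 0.0515). SCARNA9 overlapped between the groups, at 19.0, 17.5 and 23.1 CPM in wt and 13.6, 18.5 and 17.9 CPM in shDicer (log2 fold change -0.25 ± 0.15 SE, adjusted p = 0.186). For SCARNA2, an RNA wholly contained in another record, the samples were listed at 0, 32.7 and 4.20 CPM in wt and at 131, 1.21 and 18.2 CPM in shDicer. These values spread widely within each group and overlapped (log2 fold change 2.02 ± 1.25 SE, adjusted p = 0.193), and with the containing record added the log2 fold change was 0.26 with adjusted p = 0.443. The remaining 7 tested scaRNAs had log2 fold changes from -1.14 (SCARNA23) to 0.14 (SCARNA13).

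TERC, the template RNA of telomerase, was not called (log2 fold change 0.54 ± 0.36 SE, adjusted p = 0.218), nor were the vault RNAs VTRNA1-1 and VTRNA1-3, parts of a large cytoplasmic particle (log2 fold changes -0.97 and -0.73). The 11 RNAs that did not pass the filter, VTRNA1-2 and 10 scaRNAs (SCARNA3, SCARNA8, SCARNA11, SCARNA14, SCARNA15, SCARNA17, SCARNA18, SCARNA18B, SCARNA20 and SCARNA21B), reached at most 1.25 CPM in any mRNA-seq sample. Differences among those for which no shared subsequence was found were not detectable at this depth. SCARNA15 and SCARNA17 share all subsequences with another record, so that a low level and the division of counts between records cannot be told apart. With SNHG22, the record that contains SCARNA17, added to it, the sum was called higher in mRNA-seq shDicer (log2 fold change 1.83 ± 0.28 SE, adjusted p = 0.000224), in the chromatin samples labelled shDicer (log2 fold change 1.14 ± 0.11 SE, adjusted p = 9.59e-06) and in shAgo2 (log2 fold change 0.72 ± 0.11 SE, adjusted p = 0.000338), but not in the samples labelled DroshaKD (log2 fold change 0.31 ± 0.12 SE, adjusted p = 0.173). With its record added SCARNA15 was called in none of these 4 comparisons (edgeR, log2 fold changes from -0.10 to 0.29, adjusted p from 0.0297 to 0.744).

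**Figure D1:**
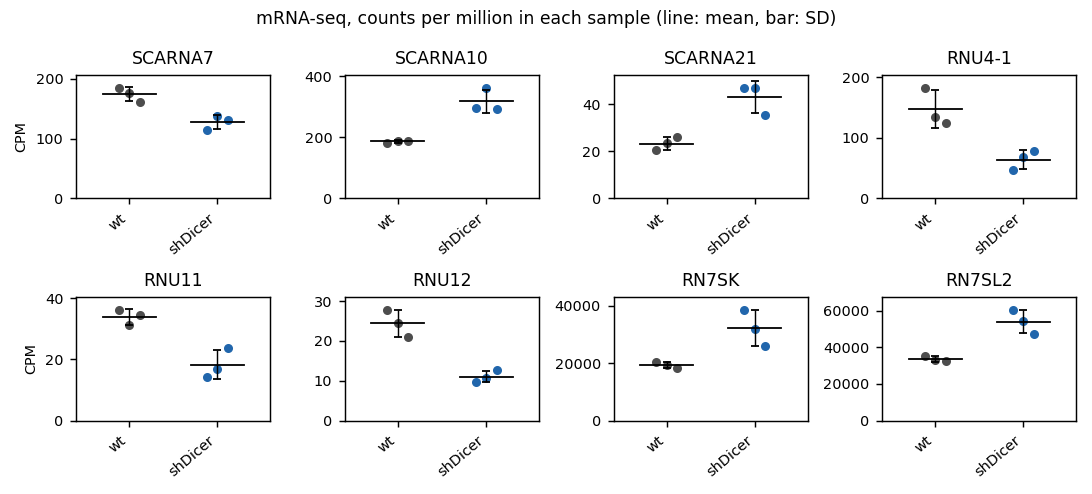
CPM (vertical axes from 0) in each of the 3 wt and 3 shDicer mRNA-seq samples for the 8 RNAs called between these groups, with the mean as a line and the SD as a bar. No panel has a shDicer sample within the range of wt, and SCARNA10, SCARNA21, RN7SK and RN7SL2 are higher in shDicer while SCARNA7, RNU4-1, RNU11 and RNU12 are lower.

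The direction in mRNA-seq went with the length of the RNA. Of 16 tested RNAs of up to 200 nt, 1 had a positive log2 fold change (SCARNA21) and the median was -0.69, with 1 called higher and 3 lower. Of 14 RNAs over 200 nt, 9 had a positive log2 fold change and the median was 0.49, with 3 called higher and 1 lower. The small nucleolar RNAs (SNORA and SNORD genes), guides for rRNA that are mostly short too, had a median of -0.73 over 106 tested, with 3 called higher and 22 lower. The mean fragment length that the authors' quantification implies also differed, at 149.1, 149.6 and 153.0 nt in wt and 170.0, 169.6 and 161.3 nt in shDicer. Its part in these changes was not tested. When counts were rebuilt from TPM, which uses the effective length of each RNA, 2 of the 8 calls were left (RNU12 and SCARNA10), and 13739 genes were tested, of which 1587 were called against 4493 in the main test. All 8 kept their direction. The number of calls among the RNAs was 2 without wt replicate 1, 3 without wt replicate 2, 4 without wt replicate 3 and 3 without shDicer replicate 2.

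On chromatin labelled shDicer, 3 RNAs were higher than in wt, SCARNA21, RN7SL2 and RNU5B-1, and none was lower. With 35 of the 41 RNAs tested by edgeR at an adjusted p under 0.005, the 3 calls compare with 21.6% of all 32874 genes called (11.0% higher and 10.5% lower). At an unadjusted p under 0.05, 10 of the 35 were higher and 3 lower, where 46.0% of all genes passed in either direction, and DESeq2 called 2 higher and 0 lower. The median log2 fold change was 0.23 beside 0.0072 for all genes. All chromatin contrasts with wt share the same 2 wt samples. SCARNA21 stood at 4.45 and 4.48 CPM in wt and at 8.37 and 9.69 CPM in the samples labelled shDicer, well apart (log2 fold change 1.01 ± 0.16 SE, adjusted p = 0.000364). It lies in an intron of CHD3, and reads from unspliced CHD3 RNA cannot be told apart from SCARNA21 itself. RN7SL2 stood at 713 and 702 CPM in wt and at 1072 and 1431 CPM, both samples above wt (log2 fold change 0.82 ± 0.16 SE, adjusted p = 0.00192). With all 7SL copies added the log2 fold change was 0.26 and no longer called (adjusted p = 0.0643). The members held between 35.0 and 98.3% of the counts of this family in any sample. RNU5B-1 stood at 14.8 and 17.4 CPM in wt and at 30.3 and 21.2 CPM, both above wt but with replicate 1 far higher than replicate 2 (log2 fold change 0.68 ± 0.15 SE, adjusted p = 0.00348). All U5 records together gave 0.36 with adjusted p = 0.023, not called. RNU5A-1 stood at 10.4 and 11.9 CPM in wt and at 17.1 and 14.5 CPM, also apart from wt, and missed the threshold (log2 fold change 0.50 ± 0.12 SE, adjusted p = 0.00747).

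RN7SK, which passed in mRNA-seq, stood on chromatin at 1237 and 1500.3 CPM in wt and at 1937 and 2299 CPM in the samples labelled shDicer and just missed the threshold (log2 fold change 0.63 ± 0.15 SE, adjusted p = 0.00644). RN7SL1 stood at 926 and 926 CPM in wt and at 1140.4 and 1558 CPM (log2 fold change 0.54 ± 0.16 SE, adjusted p = 0.0179). For both, the samples labelled shDicer were above wt. Neither RNU4-1, at 20.9 and 23.6 against 23.0 and 19.1 CPM, nor RNU4-2, at 31.4 and 41.1 against 38.4 and 35.7 CPM, was apart from wt (log2 fold changes -0.08 and 0.03). Without either wt replicate no RNA was called in this comparison (edgeR, 7 higher and 3 lower at an unadjusted p under 0.05 without replicate 1, and 8 and 1 without replicate 2), and 5 were called without either library labelled DroshaKD, which enter the shared estimate of spread.

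In shAgo2 chromatin 1 of the 35 RNAs was called and it was lower, beside 24.5% of all genes (12.5% higher and 12.1% lower). SCARNA12 lies in an exon of the PHB2 record in its own orientation and stood at 15.4 and 15.2 CPM in wt and at 8.16 and 9.17 CPM in shAgo2. Both shAgo2 samples were below wt (log2 fold change -0.82 ± 0.16 SE, adjusted p = 0.00136). PHB2, which encodes prohibitin 2, was lower by nearly the same amount (log2 fold change -0.71 ± 0.08 SE, adjusted p = 1.92e-05), and with both records added the change was also called (log2 fold change -0.73 ± 0.09 SE, adjusted p = 3.63e-05). No RNA was called higher, but 5 were higher at an unadjusted p under 0.05 and 5 lower, where 48.6% of all genes passed, and DESeq2 called 0 higher and 1 lower. These 5 were RN7SK, RN7SL2, RNU5A-1, RNU5B-1 and SCARNA21. RN7SK stood at 1768 and 2104 CPM in shAgo2 (log2 fold change 0.50 ± 0.15 SE, adjusted p = 0.0203). RN7SL2 stood at 1002 and 1068 CPM (log2 fold change 0.55 ± 0.16 SE, adjusted p = 0.0184). For SCARNA21 the shAgo2 samples were at 6.39 and 7.42 CPM, above both wt samples (log2 fold change 0.63 ± 0.17 SE, adjusted p = 0.00942). The median over the 35 was -0.03. Leaving out either wt or either shAgo2 replicate ended the call of SCARNA12, leaving out either shDicer library gave 2 calls and leaving out either library labelled DroshaKD gave 3. A fit of the wt and shAgo2 samples alone called 9 of the RNAs, and 11001 of all 31547 genes it tested.

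In the chromatin libraries labelled DroshaKD, 14 of the 35 RNAs were higher than in wt at an adjusted p under 0.05 and none was lower (edgeR, with 18 higher and 0 lower at an unadjusted p under 0.05, which 19.1% of all genes passed, and DESeq2 with 12 higher and 0 lower). The share called higher among all genes was 1.19%, and 2.18% were called lower (3.38% in either direction). The 14 were 7 scaRNAs (SCARNA2, SCARNA5, SCARNA7, SCARNA9, SCARNA10, SCARNA12 and SCARNA21), the U5 genes RNU5A-1 and RNU5B-1, RNU12, RN7SK, RN7SL1, RN7SL2 and RPPH1. The median log2 fold change was 0.47, beside 0.0049 for all genes, and 30 of 35 were positive. The SNORA and SNORD genes had a median of 0.23 over 203 tested, with 20 called higher (9.85%) and 0 lower at this threshold, 50 higher and 2 lower at an unadjusted p under 0.05.

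SCARNA2 (chr1:109100193-109100612, plus strand), a guide for the U2 snRNA, shares all its subsequences with another record. It stood at 92.6 and 102 CPM in wt and at 409 and 259 CPM in the samples labelled DroshaKD, both far above wt (log2 fold change 1.78 ± 0.29 SE, adjusted p = 0.00977). With the record that contains it added, the change was smaller and still called (log2 fold change 0.96 ± 0.15 SE, adjusted p = 0.00763). SCARNA7 stood at 9.67 and 12.4 CPM in wt and at 30.7 and 19.1 CPM, with replicate 1 well above replicate 2 and both above wt (log2 fold change 1.17 ± 0.22 SE, adjusted p = 0.018). SCARNA21 stood at 4.45 and 4.48 CPM in wt and at 9.25 and 7.57 CPM (log2 fold change 0.91 ± 0.16 SE, adjusted p = 0.0131). SCARNA5 stood at 3.50 and 4.80 CPM in wt and at 8.74 and 6.75 CPM (log2 fold change 0.90 ± 0.19 SE, adjusted p = 0.0266). Neither overlapped wt. SCARNA9 (chr11:93721513-93721865, plus strand) stood at 14.6 and 15.0 CPM in wt and at 25.5 and 21.7 CPM (log2 fold change 0.67 ± 0.11 SE, adjusted p = 0.00993). SCARNA10 stood at 25.0 and 30.4 CPM in wt and at 47.9 and 40.2 CPM (log2 fold change 0.67 ± 0.14 SE, adjusted p = 0.0297). In both the samples labelled DroshaKD were higher than wt. SCARNA12 stood at 15.4 and 15.2 CPM in wt and at 28.5 and 22.4 CPM (log2 fold change 0.73 ± 0.14 SE, adjusted p = 0.0213), but with PHB2 added its direction turned and the call was lost (log2 fold change -0.01 ± 0.09 SE, adjusted p = 0.957).

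Of the snRNAs, RNU12 stood at 5.57 and 5.94 CPM in wt and at 11.5 and 11.1 CPM in the samples labelled DroshaKD, with little spread in either group (log2 fold change 0.97 ± 0.15 SE, adjusted p = 0.00705). The call held with the record that contains it added (log2 fold change 0.86 ± 0.13 SE, adjusted p = 0.00689). RNU5A-1 stood at 10.4 and 11.9 CPM in wt and at 20.4 and 18.1 CPM (log2 fold change 0.78 ± 0.12 SE, adjusted p = 0.00807). RNU5B-1 stood at 14.8 and 17.4 CPM in wt and at 30.2 and 30.2 CPM (log2 fold change 0.91 ± 0.15 SE, adjusted p = 0.00942). Both U5 genes were apart from wt, and all U5 records together gave a log2 fold change of 0.74 with adjusted p = 0.00677. RNU11 stood at 7.65 and 10.4 CPM in wt and at 12.9 and 11.7 CPM, above wt, and was not called (log2 fold change 0.45 ± 0.17 SE, adjusted p = 0.17). The U4 genes overlapped wt. RNU4-1 was at 30.5 and 19.5 CPM and RNU4-2 at 46.1 and 32.1 CPM in the samples labelled DroshaKD (log2 fold changes 0.17 and 0.11).

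Among the RNA polymerase III products, RN7SL2 stood at 713 and 702 CPM in wt and at 1801 and 1219.8 CPM in the samples labelled DroshaKD (log2 fold change 1.09 ± 0.17 SE, adjusted p = 0.00734). RN7SL1 stood at 926 and 926 CPM in wt and at 2193 and 1555 CPM (log2 fold change 1.02 ± 0.16 SE, adjusted p = 0.00807). Replicate 1 was the higher in each, and both replicates exceeded wt. The whole 7SL family gave a smaller log2 fold change of 0.45 with adjusted p = 0.0388. RPPH1 stood at 83.3 and 89.9 CPM in wt and at 178 and 136 CPM (log2 fold change 0.86 ± 0.18 SE, adjusted p = 0.0267). RN7SK stood at 1237 and 1500.3 CPM in wt and at 2494 and 1824 CPM (log2 fold change 0.66 ± 0.15 SE, adjusted p = 0.0392). None of these groups overlapped, although the margin was small for RN7SK. RMRP stood at 741 and 762 CPM in wt and at 1185 and 895 CPM, above wt in both, and missed the threshold (log2 fold change 0.47 ± 0.12 SE, adjusted p = 0.0604), as did SCARNA13 (log2 fold change 0.67 ± 0.17 SE, adjusted p = 0.0535). TERC and VTRNA1-3 were not called (log2 fold changes -0.08 and 0.10). Beyond the RNAs already given, RNU4ATAC, RNU6ATAC and 12 scaRNAs were tested and not called, with log2 fold changes from -0.27 (SCARNA8) to 0.70 (SCARNA22). The 6 RNAs not tested on chromatin were SCARNA11, SCARNA15, SCARNA16, SCARNA17, VTRNA1-1 and VTRNA1-2, which reached at most 0.530 CPM in any sample.

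By length, 10 of 14 RNAs over 200 nt were called in the libraries labelled DroshaKD, with a median log2 fold change of 0.70, and 4 of 21 RNAs up to 200 nt, with a median of 0.18. On wt chromatin the shorter tested RNAs ran from 0.593 and 0.632 CPM (SCARNA21B) to 31.4 and 41.1 CPM (RNU4-2). Those over 200 nt ran from 2.43 and 3.03 CPM (SCARNA6) to 1237 and 1500.3 CPM (RN7SK). Length and level therefore cannot be told apart here. The mean fragment lengths were 198.0 and 198.3 nt in wt and 199.3 and 194.5 nt in the samples labelled DroshaKD. Replicate 1 of this group was the higher for 13 of the 14 called RNAs. Without it 7 of the RNAs were called, and without either wt replicate none was (edgeR, 16 and 19 of 35 higher and 0 lower at an unadjusted p under 0.05). In those fits 72 and 90 of all genes were called, against 1110 with all samples. Counts rebuilt from TPM called no gene of any kind in this comparison, with 18 of the RNAs higher and 0 lower at an unadjusted p under 0.05. When library size alone set the scale, 16 RNAs were called higher and 0 lower, and the calls over all genes changed from 392 higher and 718 lower to 768 higher and 527 lower.

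**Figure D2:**
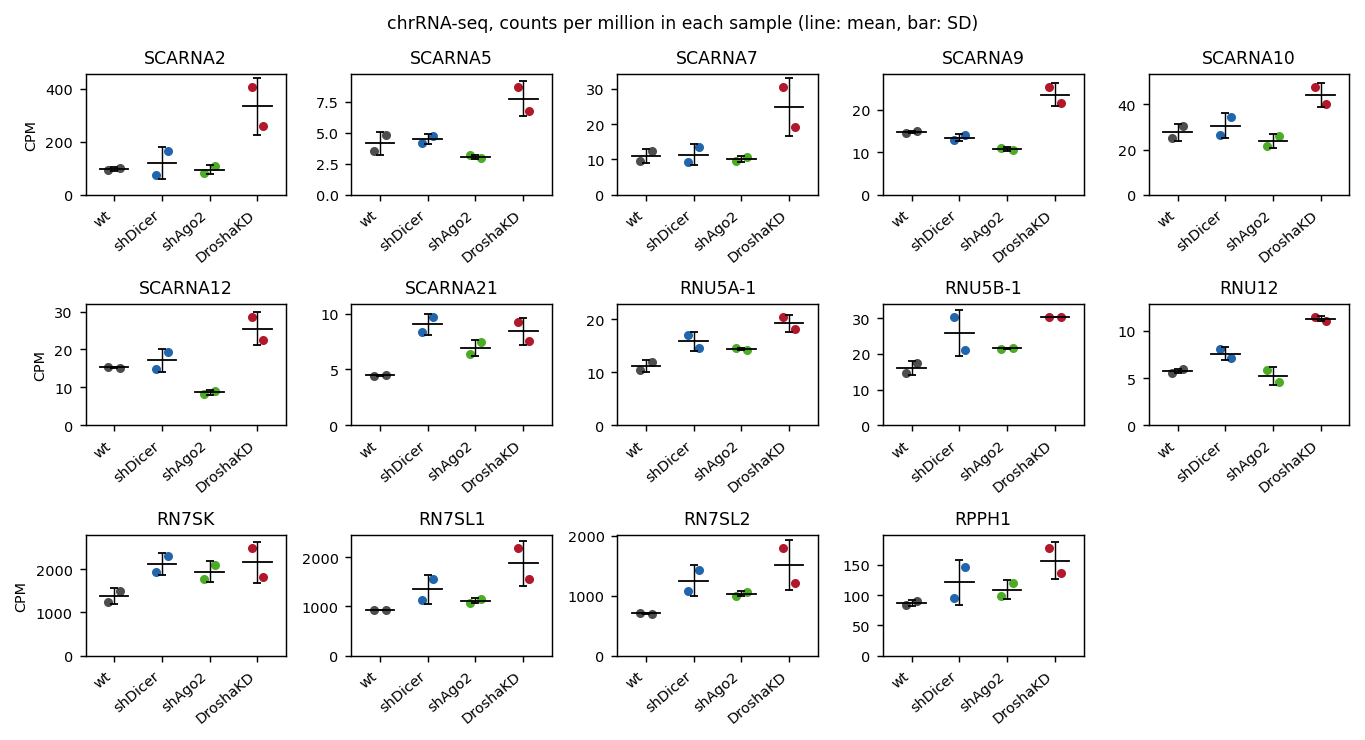
CPM (vertical axes from 0) in each of the 2 chrRNA-seq samples of wt, shDicer, shAgo2 and DroshaKD, as labelled, for the 14 RNAs called between DroshaKD and wt, with the mean as a line and the SD as a bar. In every panel both DroshaKD samples lie above both wt samples, and SCARNA12 is lowest in shAgo2.

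The knockdowns were also compared with each other on chromatin. The libraries labelled shDicer differed from shAgo2 in 1 RNA, SCARNA12, which was higher in shDicer (log2 fold change 0.98 ± 0.16 SE, adjusted p = 0.00245), where 2.71% of all genes were called (1.37% higher and 1.34% lower; at an unadjusted p under 0.05, 9 RNAs were higher and 0 lower beside 23.6% of all genes, and DESeq2 called 1 higher and 0 lower). They differed from those labelled DroshaKD in 4 RNAs, all lower in shDicer, where 20.5% of all genes were called (edgeR, 11.0% higher and 9.51% lower). At an unadjusted p under 0.05 1 RNA was higher and 13 were lower, beside 44.5% of all genes, and DESeq2 called 0 higher and 3 lower. The 4 were SCARNA2 (log2 fold change -1.48), SCARNA7 (-1.13), SCARNA9 (-0.81) and RNU11 (-0.79). With all RNU11 copies added the last was -0.33 and no longer called (adjusted p = 0.109). Between shAgo2 and the libraries labelled DroshaKD 11 RNAs were called, all lower in shAgo2, and 21.9% of all genes were (edgeR, 11.6% higher and 10.3% lower). At an unadjusted p under 0.05 0 RNAs were higher and 17 lower, beside 46.2% of all genes, and DESeq2 called 0 higher and 10 lower. The 11 were 8 scaRNAs, from SCARNA2 (-1.81) and SCARNA12 (-1.56) over SCARNA5 (-1.33), SCARNA7 (-1.30), SCARNA9 (-1.13) and SCARNA6 (-1.09) to SCARNA10 (-0.88) and SCARNA13 (-0.87), with RNU11 (-1.18), RNU12 (-1.10) and RN7SL1 (-0.75). With all copies added RNU11 was at -0.60 (adjusted p = 0.00831) and RN7SL1 at -0.34 (adjusted p = 0.0214), neither of them called. With their overlapping records added SCARNA12 was at -0.72 and RNU12 at -0.72, both still called (adjusted p = 4.89e-05 and 0.000739). RNU11 stood at 8.21 and 5.99 CPM in shDicer and at 5.51 and 5.35 CPM in shAgo2, below the 12.9 and 11.7 CPM of the samples labelled DroshaKD.

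**Figure D3:**
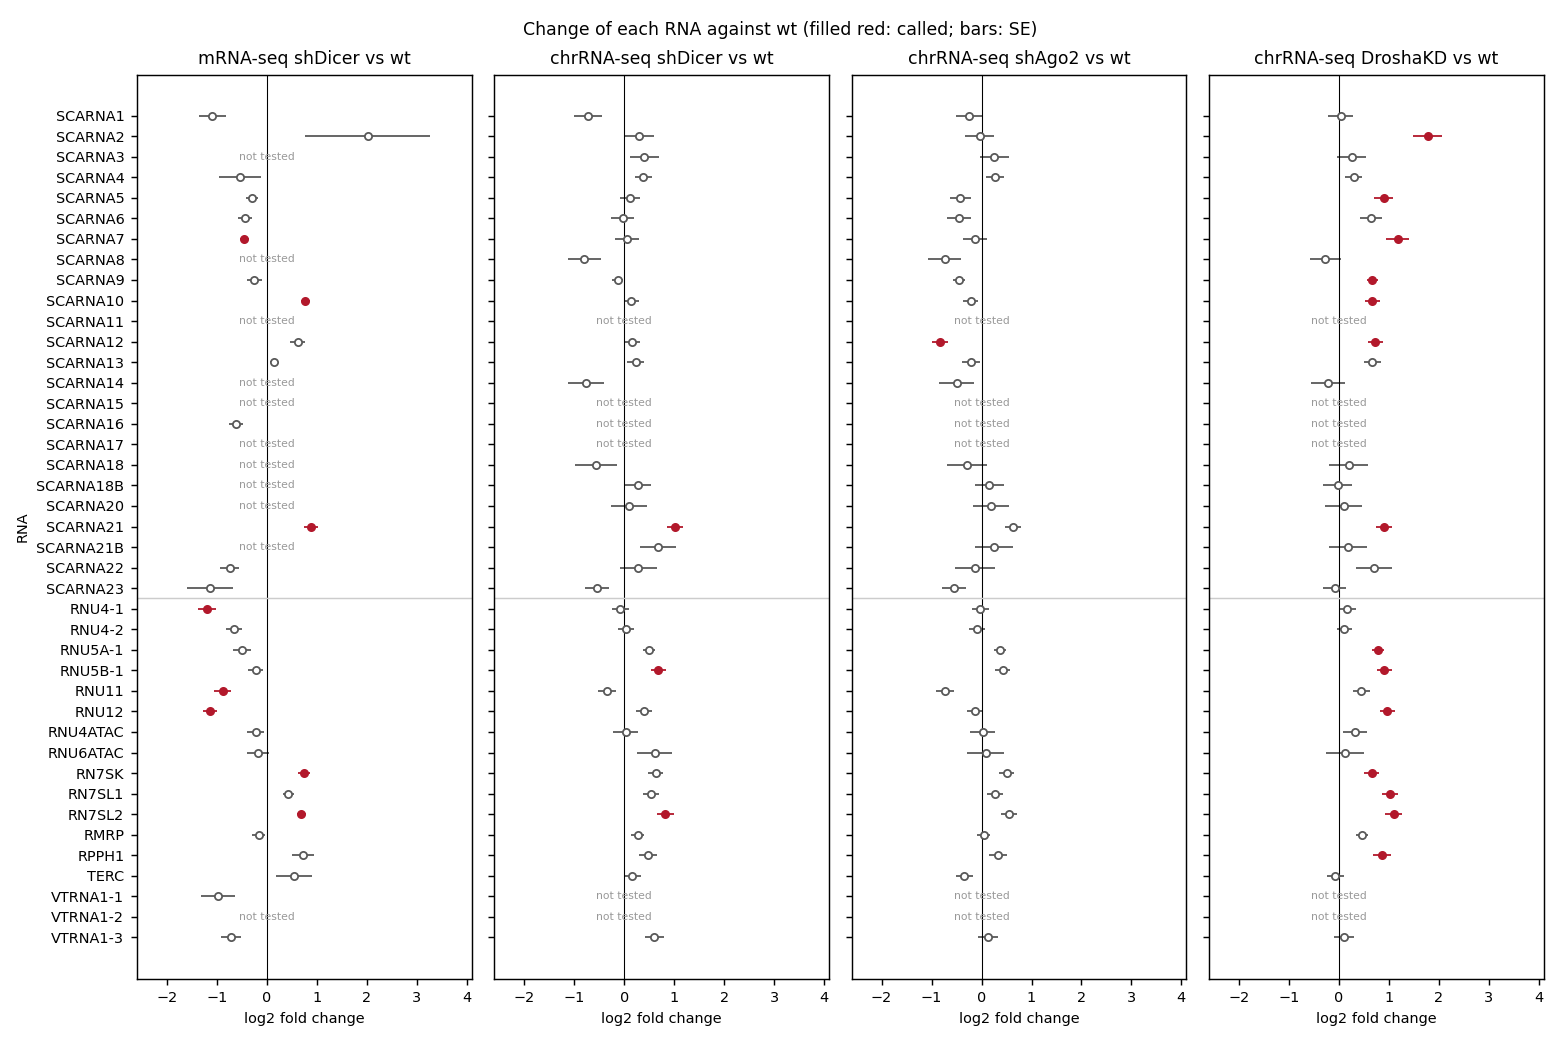
Log2 fold change against wt (horizontal axes, bars are SE) for each of the 41 RNAs in the 4 comparisons, one panel each. Filled red points were called, open points were not, and RNAs below the filter are marked as not tested. The panel labelled DroshaKD holds 14 filled points, all right of 0, and the mRNA-seq panel holds 4 on each side.

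Whether shDicer acted differently on an RNA in the 2 fractions was tested as an interaction, which called 1 of 38 RNAs at an adjusted p under 0.005, beside 4.47% of all genes (2.68% higher and 1.79% lower, as mRNA-seq minus chromatin). RNU12 fell in mRNA-seq (-1.14) and had a log2 fold change of 0.40 on chromatin, where it stood at 5.57 and 5.94 CPM in wt and at 8.05 and 7.10 CPM in the samples labelled shDicer. The difference of the log2 fold changes was -1.61 ± 0.25 SE (adjusted p = 0.000144). Adding the record that contains RNU12 took the call away (log2 fold change -0.69 ± 0.20 SE, adjusted p = 0.0285). For the other RNAs tested a difference between fractions was not called, and 1 of the 38 was higher and 14 lower at an unadjusted p under 0.05, which 23.1% of all genes passed. Kit, cells and length of induction differ between the fractions and cannot be told apart from the fraction itself.

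The RNAs that lie in an intron of a gene on the same strand, outside its exons, were set beside that gene, called the host. All were scaRNAs except RNU4ATAC, which was paired with CLASP1-AS1 on chromatin. The authors' quantification used cDNA and ncRNA sequences. Reads from unspliced host RNA across such an RNA therefore cannot be told apart from the RNA itself, above all on chromatin. The mRNA-seq pairs included SCARNA16 with SEC14L1, although SCARNA16 also lies in an exon of SNHG20. In mRNA-seq 10 such RNAs with 9 hosts were tested, of which 2 hosts were called higher and 5 lower (15.6% and 14.2% of all genes), and the RNA and its host had the same sign in 9 of 10 pairs. CHD3, a chromatin remodeller and the host of SCARNA21, rose with its RNA (log2 fold change 0.96 ± 0.10 SE, adjusted p = 1.82e-05). NCAPD2, a condensin subunit and the host of SCARNA10, rose as well (log2 fold change 0.73 ± 0.07 SE, adjusted p = 6.92e-06). KPNA4, an importin and the host of SCARNA7, fell like its RNA (log2 fold change -0.76 ± 0.08 SE, adjusted p = 1.49e-05). On chromatin 2 of 16 hosts were called higher and 6 lower in the samples labelled shDicer (11.0% and 10.5% of all genes), with the same sign in 11 of 17 pairs, and 3 and 5 in shAgo2 (12.5% and 12.1%), with the same sign in 13 of 17. CHD3 was also higher in the samples labelled shDicer (log2 fold change 0.73 ± 0.07 SE, adjusted p = 1.1e-05) and in shAgo2 (log2 fold change 0.64 ± 0.07 SE, adjusted p = 2.56e-05). In the libraries labelled DroshaKD 1 of 16 hosts was called, UCHL5, the host of SCARNA18B, which was higher (1.19% of all genes), and 9 of 17 pairs had the same sign. CHD3 was not called there (log2 fold change -0.24 ± 0.07 SE, adjusted p = 0.0968), nor were NCAPD2 (log2 fold change -0.41 ± 0.13 SE, adjusted p = 0.102), KPNA4 (log2 fold change 0.04 ± 0.07 SE, adjusted p = 0.813), ATG16L1, which hosts SCARNA5 and SCARNA6 (log2 fold change 0.07 ± 0.09 SE, adjusted p = 0.732), or CEP295, which hosts SCARNA9 (log2 fold change 0.04 ± 0.07 SE, adjusted p = 0.823). These differences between an RNA and its host were not tested.

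The proteins that bind, build or trim these RNAs were grouped in 14 lists with 138 genes, all of them tested. In mRNA-seq shDicer 8 were called higher and 43 lower, beside 15.6% and 14.2% of all genes, with a median log2 fold change of -0.25. Of the 7 H/ACA guide proteins and assembly factors 4 were lower and 0 higher, and of the 7 Sm proteins 4 were lower and 0 higher (edgeR; at an unadjusted p under 0.05, 5 and 7 lower and 0 higher, where 62.0% of all genes passed; DESeq2, 4 and 7 lower and 0 higher). The C/D guide proteins went the other way, with 2 higher and 1 lower of 4 and a median log2 fold change of 0.36. RNase P and MRP proteins gave 1 higher and 4 lower of 10, the 12 proteins of the U4/U6.U5 particle 0 and 4, the 9 minor spliceosome proteins 0 and 2, the 6 signal recognition particle proteins 0 and 2, the 7 genes of the 7SK particle and P-TEFb 1 and 2, and Integrator, which ends snRNA transcripts, 1 and 5 of 14. Cajal body and snRNP assembly genes gave 1 and 5 of 16, La and LSm proteins 1 and 2 of 8. Factors of snRNA promoters and RNA polymerase III gave 0 and 5 of 25. Genes that trim or tail small RNAs gave 1 and 3 of 9, telomerase and vault proteins 0 and 0 of 6. The lowest was DIS3, a nuclease of the RNA exosome, at 142 ± 11.1 against 616 ± 35.3 CPM (SD, n = 3), a log2 fold change of -2.12 ± 0.08 SE with adjusted p = 1.39e-08. RPP25, an RNase P and MRP subunit, stood at 5.03 ± 1.81 against 19.9 ± 1.22 CPM (SD, n = 3), a log2 fold change of -1.99 ± 0.21 SE with adjusted p = 1.42e-05. GAR1, an H/ACA protein, stood at 5.90 ± 1.20 against 14.3 ± 1.84 CPM (SD, n = 3), a log2 fold change of -1.29 ± 0.18 SE with adjusted p = 0.000112. All lay below wt in every sample. INTS11, the endonuclease of Integrator, was higher, at 35.5 ± 7.09 against 17.3 ± 2.63 CPM (SD, n = 3), a log2 fold change of 1.03 ± 0.16 SE with adjusted p = 0.000233. GEMIN8 of the SMN complex was higher too, at 14.2 ± 0.921 against 7.25 ± 0.901 CPM (SD, n = 3), a log2 fold change of 0.96 ± 0.14 SE with adjusted p = 0.000171. RPP21 was the highest, at 6.23 ± 1.24 against 0.393 ± 0.062 CPM (SD, n = 3), a log2 fold change of 3.96 ± 0.30 SE with adjusted p = 1.34e-06, and its exons are shared with a read-through record, so this value is uncertain.

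On chromatin labelled shDicer 2 of the 138 were called higher and 43 lower, beside 11.0% and 10.5% of all genes, and in shAgo2 8 and 41, beside 12.5% and 12.1%. GAR1 was lower in the samples labelled shDicer, at 5.54 ± 0.273 against 11.6 ± 0.521 CPM (SD, n = 2), a log2 fold change of -1.07 ± 0.13 SE with adjusted p = 4.81e-05. In shAgo2 it was lower as well, at 5.66 ± 0.564 against 11.6 ± 0.521 CPM (SD, n = 2), a log2 fold change of -1.04 ± 0.13 SE with adjusted p = 4.64e-05. DIS3 stood in the samples labelled shDicer at 85.0 ± 4.58 against 181 ± 9.72 CPM (SD, n = 2), a log2 fold change of -1.09 ± 0.08 SE with adjusted p = 1.19e-06. In shAgo2 DIS3 stood at 88.3 ± 1.42 against 181 ± 9.72 CPM (SD, n = 2), a log2 fold change of -1.04 ± 0.08 SE with adjusted p = 1.48e-06. Both genes were below wt in each. RPP25 was lower in the samples labelled shDicer, at 7.97 ± 0.485 against 17.1 ± 1.62 CPM (SD, n = 2), a log2 fold change of -1.10 ± 0.13 SE with adjusted p = 3.1e-05, and INTS5 in shAgo2, at 17.5 ± 0.409 against 36.8 ± 3.33 CPM (SD, n = 2), a log2 fold change of -1.08 ± 0.10 SE with adjusted p = 4.12e-06. Higher were GEMIN8 in both, at 22.1 ± 1.45 against 13.1 ± 0.628 CPM (SD, n = 2), a log2 fold change of 0.76 ± 0.11 SE with adjusted p = 0.000149 in the samples labelled shDicer and at 23.6 ± 0.456 against 13.1 ± 0.628 CPM (SD, n = 2), a log2 fold change of 0.85 ± 0.11 SE with adjusted p = 5.04e-05 in shAgo2. POU2F1, an activator of snRNA promoters, was higher in the samples labelled shDicer, at 131 ± 16.5 against 93.9 ± 7.86 CPM (SD, n = 2), a log2 fold change of 0.48 ± 0.10 SE with adjusted p = 0.00303. POLR3G, a subunit of RNA polymerase III, was higher in shAgo2, at 16.4 ± 0.838 against 9.76 ± 0.305 CPM (SD, n = 2), a log2 fold change of 0.75 ± 0.11 SE with adjusted p = 0.000223. RPP21 was higher in shAgo2, at 3.12 ± 0.303 against 0.275 ± 0.031 CPM (SD, n = 2), a log2 fold change of 3.47 ± 0.56 SE with adjusted p = 0.000399, with the same uncertainty.

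In the libraries labelled DroshaKD 0 of the 138 proteins were called higher and 6 lower, beside 1.19% and 2.18% of all genes (edgeR; 5 higher and 30 lower at an unadjusted p under 0.05, which 19.1% of all genes passed; DESeq2, 0 higher and 10 lower), with a median log2 fold change of -0.05. The lowest was PRPF8, the large protein at the heart of the spliceosome, at 379 ± 91.9 against 643 ± 47.4 CPM (SD, n = 2), a log2 fold change of -0.76 ± 0.15 SE with adjusted p = 0.0206. FBL, the methyltransferase of C/D guides, stood at 19.9 ± 0.829 against 29.5 ± 0.285 CPM (SD, n = 2), a log2 fold change of -0.57 ± 0.09 SE with adjusted p = 0.00774. INTS1 of Integrator stood at 202 ± 1.15 against 283 ± 7.26 CPM (SD, n = 2), a log2 fold change of -0.48 ± 0.07 SE with adjusted p = 0.00624. All samples labelled DroshaKD were below wt for these. No H/ACA, Sm, or RNase P and MRP protein was called in either direction there (0, 2 and 0 lower and 0 higher at an unadjusted p under 0.05, and DESeq2 called 0 in each).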

How the data were processed

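Whole-cell and chromatin RNA was sequenced from HEK293T cells and 14 samples with quantification tables were used; 6 small RNA samples were not analysed here. The authors deposited estimated counts and TPM per transcript, made with kallisto against human cDNA and ncRNA, and the submitters' processing notes name hg38. Of 217082 transcripts, 193697 (89.2%) matched GENCODE release 44 by identifier with the version dropped. They held 93.4 to 94.8% of the counts, and the rest were left out. Estimated counts were summed per gene and rounded, since the authors' counts need not be whole. In R 4.3.3, edgeR 4.0.16 (filterByExpr, TMM scaling, quasi-likelihood test) was fitted to the 6 mRNA-seq samples, to the 8 chromatin samples with 1 shared estimate of spread, and to all 14 samples for the interaction. Benjamini-Hochberg adjustment ran over all genes tested, and a call needed an adjusted p under 0.001 (mRNA-seq), 0.005 (chromatin shDicer and shAgo2, contrasts between knockdowns, interaction) or 0.05 (DroshaKD). CPM values are scaled by TMM library sizes. Precision is that of 2 or 3 samples a group and of the depth given above; a floor of 3 counts covers counting error only.

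Alternatives were DESeq2 1.42.0, RLE scaling, library size alone, no filter on low counts, counts scaled from TPM, unmatched transcripts kept, gene IDs kept apart, sequence families summed, a replicate block, each sample left out, only the groups compared, and an absolute log2 fold change above 1 as well. Adding overlapping gene records and crossing the DroshaKD numbers in the block were chosen after seeing the data. The fits were tested on simulated data. The RNAs, protein lists and tests were chosen with earlier results of these data known. RNAs were shown per sample if called against wt in any comparison or among the 5 highest by mean TPM in either wt group. For these, values are given in mRNA-seq, chromatin wt and the libraries labelled DroshaKD. In chromatin shDicer and shAgo2 the text gives values per sample for only some of them. Proteins are named per comparison if called without overlap of the groups and among the 3 highest or the 3 lowest by log2 fold change. Sequences were read from GENCODE transcripts with Python 3.11.15, and some are not reported here.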

Additional observations from a re-analysis of the deposited data

Results flagged for a closer look

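RNU12 responded differently to shDicer in the 2 RNA fractions. It fell in mRNA-seq (log2 fold change -1.14 ± 0.15 SE, adjusted p = 6.06e-05) and had a log2 fold change of 0.40 ± 0.15 SE on chromatin, and the interaction was -1.61 ± 0.25 SE (adjusted p = 0.000144). All of its 31-nt subsequences lie in an overlapping gene record too, and with that record added the interaction was -0.69 with adjusted p = 0.0285, which is no call. Groups of 2 and 3 samples are too small for a test of single samples that stand apart.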

How the results depend on the processing

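The number of RNAs called was recomputed under each alternative. In mRNA-seq shDicer the 8 calls became 15 with no low-count filter, 2 with counts scaled from TPM, 3 with unmatched transcripts kept and 2 with an absolute log2 fold change above 1 as well, and they ranged from 2 to 9 with 1 sample left out. On chromatin labelled shDicer the 3 calls became 5 with library size alone, 5 with no filter, 0 from TPM (9 higher and 4 lower at an unadjusted p under 0.05), 1 with unmatched transcripts, 1 with families summed and 1 above a log2 fold change of 1, with a range from 0 to 5. In shAgo2 the 1 call became 2 with library size alone, 4 with no filter, 0 from TPM, 0 with unmatched transcripts, 2 with overlapping records summed, 9 with only the 2 groups compared and 0 above a log2 fold change of 1, with a range from 0 to 3. In the libraries labelled DroshaKD the 14 calls became 0 from TPM, 7 with unmatched transcripts and 4 above a log2 fold change of 1, with a range from 0 to 16, and SCARNA12 reversed to -0.013 with PHB2 added. Between shDicer and shAgo2 the 1 call became 0 from TPM, 0 with unmatched transcripts and 0 above a log2 fold change of 1, with a range from 0 to 1. Between shDicer and DroshaKD the 4 calls became 8 with no filter, 0 from TPM, 1 with unmatched transcripts, 1 with only the 2 groups and 2 above a log2 fold change of 1, with a range from 1 to 6. Between shAgo2 and DroshaKD the 11 calls became 3 from TPM and 6 with unmatched transcripts, with a range from 5 to 13. For the interaction the 1 call became 5 in DESeq2, 3 with RLE, 6 with no filter, 0 from TPM and 0 with overlapping records summed, with a range from 1 to 5. Calls over all genes moved too. In mRNA-seq shDicer they were 4493 of 15090 in the main test, 6564 of 32786 with no filter and 1587 of 13739 from TPM. In shAgo2 they were 8069 of 32874, 8982 of 47182 with no filter and 11001 of 31547 with only the 2 groups compared. Between shDicer and DroshaKD they were 6734 of 32874, 7452 of 47182 with no filter and 4194 of 31918 with only the 2 groups. Beyond fewer or more samples and genes tested, the cause of these shifts was not tested.

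Replicate numbers are shared between groups. In mRNA-seq the deviations of same-numbered samples correlated weakly, at 0.0668, 0.0467 and 0.0859, and each sample correlated best with its own number. On chromatin these correlations ran from -0.131 to 0.0279. With 2 samples a group the deviations there mirror each other, so the values say little about pairing. With a replicate block the calls were 8 in mRNA-seq, 1 in each of chromatin shDicer and shAgo2, 10 in DroshaKD, 0 for shDicer against shAgo2, 3 for shDicer against DroshaKD, 10 for shAgo2 against DroshaKD and 2 for the interaction. Over all genes the block gave 4775 calls of 15090 in mRNA-seq and 1400 of 32811 for the interaction. On chromatin it gave, in the order above, 5879, 6869, 452, 413, 5492 and 5937 calls of 32874. With the DroshaKD numbers crossed in the block, shDicer and DroshaKD differed in 10 RNAs, and in 8435 of all 32874 genes.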
